A study of Mus musculus with 2 samples.

Results

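The 35 genes described here encode aminoacyl-tRNA synthetases, the enzymes that join each amino acid to its transfer RNA. They were chosen by name from the 23329 genes of the deposited tables: every symbol made of an amino acid letter followed by "ars", with or without a final 2, plus Eprs and Ears2. The 18 symbols without the 2 are the cytosolic enzymes and the 17 with it are the mitochondrial ones. Their mRNA was measured by RNA sequencing in mouse brain in 2 libraries, 1 from a synaptosome-enriched fraction and 1 from total homogenate. Synaptosomes are nerve endings that pinch off and reseal when brain is homogenised, often with a piece of the postsynaptic membrane attached. They were taken from the layer between 3% and 10% Percoll after nuclei had been spun down. Both libraries came from whole brain of WT C57BL/6 mice and share the title tags WT1 and CT10, which the labels do not explain. Neither the age of the mice nor any pooling of brains is stated in the labels. Each fraction had a single library, so no test was possible and the spread between mice or preparations is unknown. Every interval below covers counting error only.

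Cytosolic synthetases charge the transfer RNAs that ribosomes of the cell body, dendrites and glia use to read nuclear mRNAs. Mitochondrial synthetases are also encoded in the nucleus and made in the cytosol, but they are imported into mitochondria, where they serve the small set of proteins encoded by the mitochondrial genome. Several cytosolic enzymes are held together with scaffold proteins in the multisynthetase complex. Gars and Kars each serve both compartments from 1 gene, and mitochondria of mammals have no glutaminyl enzyme of their own, since glutaminyl-tRNA is made there from glutamyl-tRNA. Cytosolic phenylalanyl-tRNA synthetase is built from the subunits Farsa and Farsb, whose names fall outside the rule, so Fars2 has no cytosolic partner among the members.

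The total of estimated counts was 13709539 in the synaptosome library and 15210857 in the homogenate library. Ratios are given as log2 of synaptosome over homogenate after TMM scaling, which sets the typical gene near 0, so each value is relative to the other genes of the same library. Higher and lower are used of a gene whose ratio was at least 2-fold with an exact 95% counting interval that excluded 0. Among the 14153 genes that averaged 1 CPM (counts relative to library size) or more, 12.8% were higher and 9.10% were lower, and the median log2 ratio was -0.01. The 6 endothelial markers had summed levels of 14.67 TPM in the synaptosome library and 214.66 TPM in the homogenate library, and all 6 were lower. Of 8 astrocyte markers 6 were higher (summed 8735.91 TPM in synaptosomes and 2857.88 TPM in homogenate), as were 3 of 6 microglial and 2 of 6 oligodendrocyte markers. Of 7 neuronal markers 1 was higher and 3 were lower, with sums of 6384.63 TPM in the synaptosome library and 7530.52 TPM in the homogenate library. All 4 nuclear noncoding RNAs, among them Malat1 and Meg3, were lower. No defining marker was at 0 in either library. Markers of 1 type could differ, as with Camk2a at 1.85 and Snap25 at -1.42. The part that these marker differences have in the synthetase values was not tested. How much material of a cell type entered the fraction cannot be told apart from how much RNA that material held.

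Synthetase mRNAs took up a smaller part of the synaptosome library than of the homogenate library, apart from Lars2, which is described on its own further on. The other 34 members held 0.125% of the counts in the synaptosome library and 0.228% in the homogenate library. Their levels per transcript length summed to 1012.29 TPM (transcript abundance per unit length, scaled to a common sum) in synaptosomes and 1909.16 TPM in homogenate. The typical gene also took up less of the synaptosome library by these measures. The median log2 ratio of all genes was -0.51 by library totals and -0.55 in TPM. All 35 members passed the filter on low values.

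Cytosolic synthetases were the more abundant class in both libraries. Their median level was 52.30 TPM in the synaptosome library and 69.75 TPM in the homogenate library, against 10.02 TPM in synaptosomes and 17.08 TPM in homogenate for the 16 mitochondrial enzymes other than Lars2. Nars (asparagine) was the most abundant cytosolic member, with 116.34 TPM in synaptosomes and 255.16 TPM in homogenate. Vars (valine) was the least abundant, with 15.29 TPM in synaptosomes and 27.12 TPM in homogenate. Among the mitochondrial enzymes other than Lars2, Iars2 (isoleucine) was the most abundant, with 38.75 TPM in synaptosomes and 46.12 TPM in homogenate. Wars2 (tryptophan) was the least abundant, with 2.43 TPM in synaptosomes and 4.39 TPM in homogenate. The ranges of the classes overlap, so some mitochondrial enzymes stood above some cytosolic ones. Across the 34 members other than Lars2 the log2 ratio had a Spearman rank correlation of -0.18 with mean TPM and 0.10 with transcript length, where all 14153 genes tested had 0.23 and 0.01, as a description of values from the same pair of libraries.

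**Figure D1:**
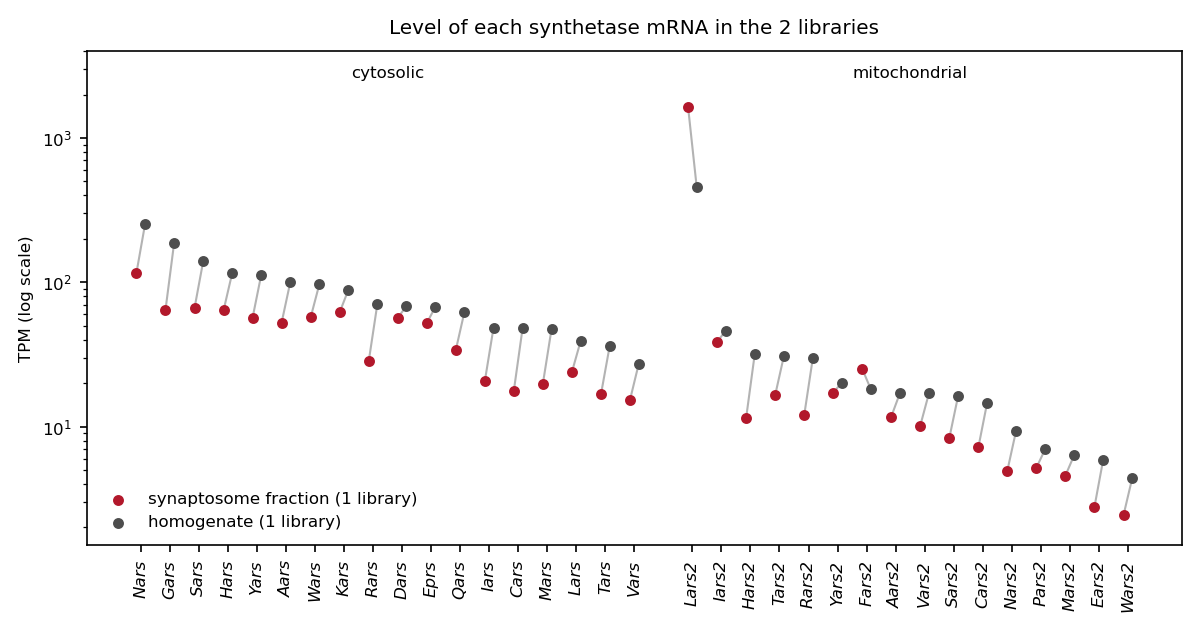
Level of the synthetase mRNAs shown (TPM, log scale) in the synaptosome library (red, left of each pair) and the homogenate library (grey), ordered within each class by homogenate level, with 1 library per point. Lars2 is at 1649.27 TPM in the synaptosome library, far above every other member, and Fars2 is the other gene whose red point is the higher of its pair.

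The cytosolic enzymes had a median log2 ratio of -0.43. Their ratio was below 0 in 15 of 18, each with an interval that also lay below 0, while 50.7% of all genes tested had a ratio below 0. Of all 14153 genes tested, 5085 had an interval below 0 and 5200 had one above 0. Only Gars passed the 2-fold rule, as lower, so 1 of 18 was lower and 0 of 18 were higher, beside 9.10% lower and 12.8% higher among all genes. Scaled by library totals alone, the median of all genes moved to -0.51 and that of the cytosolic enzymes to -0.92, with all 18 below 0.

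Gars, which charges glycine transfer RNAs in cytosol and mitochondria, had 879 counts (64.33 TPM) in the synaptosome library and 2772 counts (188.73 TPM) in the homogenate library. Its log2 ratio was -1.01, with an interval of -1.13 to -0.90, the lowest of the cytosolic class. That value lies at the edge of the 2-fold rule: scaled by DESeq2 size factors it was -0.99 and no longer counted as lower.

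Nars had 1769 counts in synaptosomes and 4170 counts in homogenate. Its log2 ratio was -0.59 (interval -0.68 to -0.51). Sars, the seryl enzyme, had 1404 counts (66.23 TPM) in synaptosomes and 3195 counts (140.09 TPM) in homogenate, for a log2 ratio of -0.54 (interval -0.63 to -0.45). These and Gars, the 3 most abundant cytosolic synthetases, all lay below the median of their class.

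The other cytosolic enzymes outside the multisynthetase complex had log2 ratios of -0.90 for Cars (cysteine), -0.57 for Tars (threonine), -0.46 for Yars (tyrosine), -0.40 for Aars (alanine), -0.33 for Hars (histidine), -0.29 for Vars and -0.23 for Wars (tryptophan). With Gars, Nars and Sars, these 10 enzymes had a median of -0.50, and all 10 intervals lay below 0.

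The 8 enzymes of the multisynthetase complex spread over a range that crossed 0, with a median log2 ratio of -0.22. The arginyl, methionyl and isoleucyl enzymes were at the low end: Rars was at -0.79, Mars at -0.73 and Iars at -0.69. Qars (glutamine) was at -0.27 and Lars (leucine) at -0.17, each with an interval below 0. The lysyl, glutamyl-prolyl and aspartyl enzymes had ratios above 0. Kars had 719 counts (61.97 TPM) in synaptosomes and 1096 counts (88.70 TPM) in homogenate, and its log2 ratio of 0.03 had an interval that holds 0 (-0.10 to 0.17).

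Eprs, which carries the glutamyl and the prolyl enzyme in 1 protein, had 1475 counts (52.09 TPM) in synaptosomes and 2064 counts (67.81 TPM) in homogenate, a log2 ratio of 0.16 (interval 0.06 to 0.26). Dars, the aspartyl enzyme, was the highest of the cytosolic class, with 721 counts (56.67 TPM) in synaptosomes and 937 counts (68.51 TPM) in homogenate and a log2 ratio of 0.26 (interval 0.12 to 0.41). The values above 0 of Kars, Eprs and Dars depend on the scaling, since by library totals or by TPM all 18 cytosolic ratios were below 0.

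**Figure D2:**
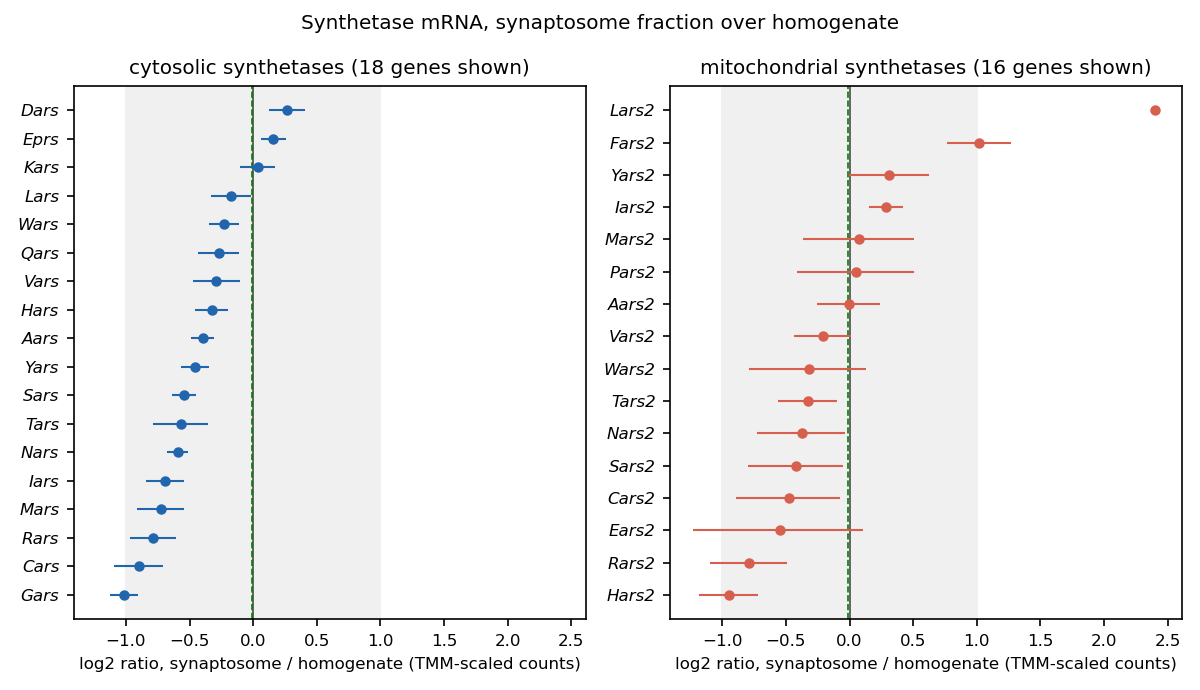
Log2 ratio of synaptosome over homogenate for the synthetases shown (points) with its exact 95% counting interval (lines), cytosolic on the left and mitochondrial on the right. The grey band marks less than 2-fold, the solid line 0 and the dashed line the median of all genes tested (-0.01). Of the cytosolic enzymes 15 of 18 lie below 0 under TMM and all 18 under library totals, and outside the band are Gars at -1.01, Fars2 at 1.01 and Lars2 at 2.40.

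The 5′ ends of the cytosolic genes were searched for the element TGATGNAA, the composite site bound by C/EBP and ATF proteins, of which Atf4 is known to switch on several synthetase genes under amino acid stress. The search was chosen after the ratios were seen. It used the RefSeq promoter table of build GRCm38.p6, from 250 bases before to 50 bases after each start, and both strands; 24 of 35 members had an entry. A gene counted as having the element if any of its entries held a match. The element was present in 5 of 10 cytosolic genes with an entry (Aars, Gars, Iars, Tars and Yars). It was present in 0 of 14 mitochondrial ones, against 4.51% of all 27025 genes with an entry. Stretches of 30 bases around a match in each of the 5 follow, 5′ to 3′ on the strand of the gene, with the element in capitals, to show how alike the matches are.
Gars (chr6:55037960-55037989, + strand): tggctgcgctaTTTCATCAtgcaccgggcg
Iars (chr13:49682126-49682155, + strand): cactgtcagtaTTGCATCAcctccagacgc
Tars (chr15:11399655-11399684, - strand): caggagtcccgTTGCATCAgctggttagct
Yars (chr4:129189895-129189924, + strand): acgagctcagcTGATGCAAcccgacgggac
Aars (chr8:111033840-111033869, + strand): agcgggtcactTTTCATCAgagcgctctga

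The matches shown read on the opposite strand in all but Yars. They began 30 bases before the start in Gars and 15 bases before it in Tars. In Iars, Yars and Aars they began at bases 8, 4 and 10 counted from the start. These starts are those of the promoter table. For Yars and Aars the transcripts measured here start elsewhere, at chr4:129189795 and chr8:111033967. Aars had another match, 112 bases before its promoter start. The log2 ratios of these 5 genes ran from -1.01 in Gars to -0.40 in Aars. The 5 cytosolic genes with a promoter entry and no match were Dars, Eprs, Kars, Qars and Sars, with ratios from -0.54 to 0.26. The other cytosolic genes, from Cars (-0.90) to Lars (-0.17), had no entry. On a list of Atf4 and its known targets outside the family, 6 of 16 genes with an entry had the element. Of these, Asns (-1.15) and Chac1 (-1.47) were below 0, and Nupr1 (1.16), Slc7a11 (0.97) and Vldlr (0.39) above it. Trib3 did not pass the filter. Any link between element and ratio was not tested. A match describes letters only: binding was not measured here.

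Mitochondrial synthetases other than Lars2 had a median log2 ratio of -0.33, and 11 of 16 were below 0. The interval lay below 0 in 7 of these 16 and above 0 in 2, beside 5085 below and 5200 above among all 14153 genes tested. Counts were lower than in the cytosolic class, so intervals were wider. The medians of the classes differed by -0.10 (cytosolic minus mitochondrial), a value that does not depend on the scaling of the counts. It was -0.22 with means in place of medians, -0.17 with Farsa and Farsb added, and -0.16 with only the most abundant transcript of each gene or at a minimum of 10 CPM. Of the 17 mitochondrial enzymes 2 were higher, Fars2 and Lars2, and 0 were lower, beside 12.8% higher and 9.10% lower among all genes.

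Fars2, the phenylalanyl enzyme of mitochondria, had 304 counts (25.14 TPM) in the synaptosome library and 235 counts (18.08 TPM) in the homogenate library. It was the highest of the mitochondrial class after Lars2, 2.02-fold higher in synaptosomes, with a log2 ratio of 1.01 and an interval of 0.76 to 1.27. Scaled by library totals it was 0.52 and by TPM 0.48, short of 2-fold. The cytosolic phenylalanyl subunits were both below 0: Farsb had a log2 ratio of -0.72 (interval -0.88 to -0.56) and Farsa one of -0.73 (interval -0.98 to -0.48).

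At the other end, Hars2, the mitochondrial histidyl enzyme, had 202 counts (11.43 TPM) in synaptosomes and 609 counts (32.06 TPM) in homogenate. Its log2 ratio was -0.95, with an interval of -1.19 to -0.72, which missed the 2-fold rule under TMM and passed it (-1.02) under upper-quartile scaling. Rars2 (arginine) followed at -0.79. Iars2 had 795 counts in synaptosomes and 1017 counts in homogenate, and its log2 ratio of 0.29 had an interval of 0.15 to 0.42. Tars2 (threonine), the next most abundant by mean TPM, had 233 counts (16.48 TPM) in synaptosomes and 457 counts (30.71 TPM) in homogenate, with a log2 ratio of -0.33 (interval -0.56 to -0.10).

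Further mitochondrial enzymes had log2 ratios of -0.54 for Ears2 (glutamate), -0.48 for Cars2 (cysteine), -0.42 for Sars2 (serine), -0.38 for Nars2 (asparagine), -0.32 for Wars2 and -0.21 for Vars2 (valine). Aars2 (alanine) was at -0.01 under TMM and at 0.02 under DESeq2 scaling. Pars2 (proline) was at 0.05, Mars2 (methionine) at 0.07 and Yars2 (tyrosine) at 0.31 under TMM. By library totals 15 of the 16 enzymes other than Lars2 were below 0, all but Fars2.

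The cytosolic and mitochondrial enzymes for the same amino acid could be compared directly, because the difference of their log2 ratios within the same pair of libraries does not depend on scaling. There were 14 such pairs described here, with Eprs set against both Ears2 and Pars2. The difference, cytosolic minus mitochondrial, had a median of -0.17. It was below 0 with an interval that excludes 0 in 4 pairs and above 0 with such an interval in 2, and the interval held 0 in 8. In 4 pairs the enzymes lay on opposite sides of 0 under TMM.

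For isoleucine, Iars had 529 counts (20.65 TPM) in synaptosomes and 1335 counts (48.47 TPM) in homogenate, a log2 ratio of -0.69 (interval -0.84 to -0.55), while Iars2 was at 0.29. The difference of -0.98 (interval -1.18 to -0.78) was the largest among the 14 pairs. For methionine, Mars had 338 counts (19.84 TPM) in synaptosomes and 873 counts (47.65 TPM) in homogenate, with an interval of -0.91 to -0.54. Mars2 had 76 counts (4.58 TPM) in synaptosomes and 113 counts (6.33 TPM) in homogenate, with an interval of -0.37 to 0.50, and the pair differed by -0.80 (interval -1.27 to -0.32).

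For tyrosine, Yars had 939 counts (56.75 TPM) in synaptosomes and 2011 counts (113.08 TPM) in homogenate, with an interval of -0.57 to -0.34. Yars2 had 152 counts (17.20 TPM) in synaptosomes and 191 counts (20.14 TPM) in homogenate, with an interval of -0.00 to 0.63, and the pair differed by -0.77 (interval -1.10 to -0.43). In the alanyl pair the difference was -0.39 (interval -0.65 to -0.13). In each of these 4 pairs the mitochondrial enzyme held more of its mRNA in the synaptosome library relative to homogenate than the cytosolic one did.

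The glutamyl and histidyl pairs went the other way. Ears2 had 29 counts (2.78 TPM) in synaptosomes and 66 counts (5.89 TPM) in homogenate, with an interval of -1.23 to 0.11, and Eprs exceeded it by 0.70 (interval 0.04 to 1.39). Hars exceeded Hars2 by 0.62 (interval 0.36 to 0.89). Hars and Hars2 lie head to head, with 75 bases between their starts. Their GENCODE M21 transcripts matched each other at 100% identity over 195 bases on opposite strands. The part of this shared stretch in their difference was not tested. The arginyl pair differed by 0.00 (interval -0.35 to 0.36), both near -0.79.

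**Figure D3:**
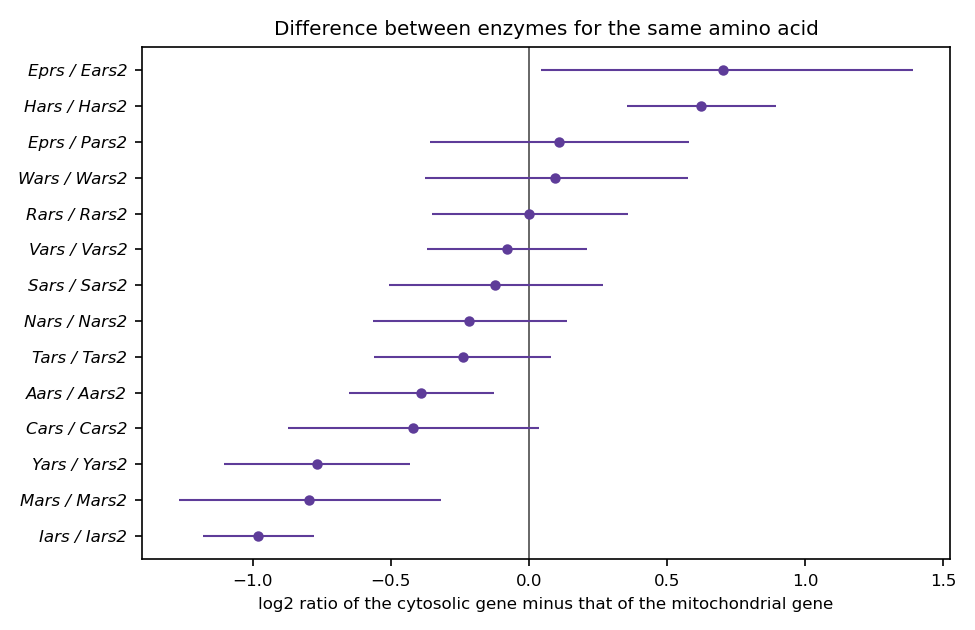
Difference between the log2 ratio (synaptosome over homogenate) of the cytosolic enzyme and that of the mitochondrial enzyme for the same amino acid, with exact 95% counting intervals, for 14 pairs. Values left of 0 are pairs whose mitochondrial mRNA has the higher ratio, and the isoleucyl pair at -0.98 and the glutamyl pair at 0.70 are the ends of the range.

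Lars2, the leucyl enzyme of mitochondria, stood apart from all other members. It had 37182 counts (1649.27 TPM) in the synaptosome library and 11009 counts (454.27 TPM) in the homogenate library, from a single transcript at chr9:123366940-123462664 on the + strand (mm10). That was 0.271% of all counts (exact 95% binomial interval 0.268% to 0.274%) in synaptosomes and 0.0724% (interval 0.0710% to 0.0737%) in homogenate. It ranked 20 by count among all genes in the synaptosome library and 134 in the homogenate library.

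Its log2 ratio was 2.40 (interval 2.37 to 2.43), or 5.27-fold higher in synaptosomes, rank 53 of 14153 by ratio. It was higher by 1.91 or more on the log2 scale with every count scaling tried, and by 1.86 in TPM. Its TPM was 165-fold the median of the other mitochondrial synthetases in the synaptosome library and 26.6-fold in the homogenate library. Alone it exceeded the sum of the other 16 mitochondrial enzymes, by 8.77-fold in synaptosomes and 1.55-fold in homogenate. The cytosolic leucyl enzyme Lars, by contrast, had 528 counts (23.89 TPM) in synaptosomes and 929 counts (39.11 TPM) in homogenate, a log2 ratio of -0.17 (interval -0.33 to -0.02).

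The mouse Lars2 gene is known from other data sets as a place where reads of ribosomal RNA can be assigned. Rn45s, the precursor of nuclear ribosomal RNA and the only ribosomal RNA gene that passed the filter, had 33373 counts in synaptosomes and 12401 counts in homogenate, a log2 ratio of 2.07 (interval 2.04 to 2.10). Its share was 0.243% in the synaptosome library and 0.0815% in the homogenate library, close to that of Lars2 in each. A search of the Lars2 transcript against the other mouse transcripts of GENCODE M21 (blastn, E-value of at most 1e-05) matched 8 genes, and all 8 matches lay in the 3′ untranslated region at chr9:123461679-123462664. The closest was Gm15564, at 98.6% identity over 72 bases (chr9:123462048-123462119), and the longest was AA474408, at 80.1% over 196 bases; neither has a row in the deposited tables. There were 0 matches to 5 transcripts checked for ribosomal RNA, namely mt-Rnr1, mt-Rnr2, Gm26917, Gm42418 and AY036118. Rn45s and Gm15564 were not among those 5, so the 0 covers neither the nuclear precursor nor the closest match. Gm15564 was on the list used here of genes that can hold ribosomal RNA reads. Per-transcript values do not show where in the gene reads fall, so the part that reads from other RNAs have in the Lars2 counts was not tested.

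Of the members, 12 had more than 1 transcript entry, and in 8 of these an entry differed from the other entries of its gene with an interval that excludes 0. These differences are also independent of scaling, but they rest on the authors' division of reads among transcripts that overlap. The matching share among all genes with several entries was not computed, so 8 of 12 is no result particular to these members.

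Kars was at 0.03 as a gene while its transcripts differed. NM_001130868 includes an exon of 180 bases (chr8:112008207-112008386) that the other transcript skips. In human KARS the transcript with the matching exon is known to encode the mitochondrial form and the one without it the cytosolic form. The first coding stretch of each mouse transcript follows, from the mouse transcripts of GENCODE M21 (GRCm38, - strand), with the start codon in capitals, to show that the skipped exon gives the protein another beginning.
NM_001130868 (chr8:112008207-112008352): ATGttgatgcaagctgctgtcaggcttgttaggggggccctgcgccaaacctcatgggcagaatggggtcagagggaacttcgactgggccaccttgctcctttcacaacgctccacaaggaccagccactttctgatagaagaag
NM_053092 (chr8:112011210-112011268): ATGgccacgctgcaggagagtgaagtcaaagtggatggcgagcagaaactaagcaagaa

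The transcript with the extra exon had 217 counts (17.57 TPM) in the synaptosome library and 215 counts (16.18 TPM) in the homogenate library, a log2 ratio of 0.66 (interval 0.38 to 0.94). The transcript without it had 502 counts (44.40 TPM) in synaptosomes and 881 counts (72.52 TPM) in homogenate, a log2 ratio of -0.17 (interval -0.33 to -0.01). The form with the exon thus made up 30.2% of Kars counts in synaptosomes (interval 26.8% to 33.7%) and 19.6% in homogenate (interval 17.3% to 22.1%), and the ratios of the forms differed 1.77-fold (log2 difference 0.82, interval 0.50 to 1.15). With the authors' posterior estimates in place of their expected counts, the shares were 31.3% in synaptosomes and 20.4% in homogenate.

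Qars had the largest difference between transcripts. NM_001168270 lacks 567 bases of the first exons of the other transcript and has 221 bases of its own inside an intron of it (chr9:108509506-108509726). It had 23 counts in synaptosomes and 331 counts in homogenate, 9.22-fold lower in the synaptosome library, with a log2 ratio of -3.20 (interval -3.88 to -2.59). Its share of Qars counts was 4.77% in synaptosomes (interval 3.05% to 7.07%) and 36.5% in homogenate (interval 33.3% to 39.7%). The transcript with the full set of first exons, NM_133794, had 459 counts in synaptosomes and 577 counts in homogenate, a log2 ratio of 0.31 (interval 0.13 to 0.49). The value of -0.27 for Qars as a gene therefore sums entries on opposite sides of 0. Posterior estimates put the share of NM_001168270 at 8.51% in synaptosomes and 36.0% in homogenate.

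Entries with bases of their own inside an intron of another entry went both ways. The one of Qars took a smaller share in the synaptosome library, and those of Cars, Pars2, Tars2 and Sars below did too. That of Kars, an exon of 180 bases, took a larger share. So did Nars NM_001142950, with 3 such bases, at 63.9% in synaptosomes and 57.8% in homogenate. These stretches differ in kind: those of Kars, Cars and Sars are separate exons. Those of Qars (221 bases), Pars2, Tars2 and Nars join an exon of another entry. For such entries of Mars, Yars2 and Wars (NM_011710) the interval of the difference held 0. Fars2 NM_024274 held 100% in both libraries, and Dars NM_145507 had 0 counts in both. Cars NM_013742, with an exon of 249 bases that the other transcript skips, held 7.19% of Cars counts in synaptosomes and 12.5% in homogenate. Pars2 NM_001083887, with 849 bases inside an intron of the other transcript, held 15.9% in synaptosomes (11 counts) and 30.8% in homogenate (32 counts). Tars2 NM_001163619, with 1932 such bases, had 4 counts in synaptosomes and 25 counts in homogenate. Sars NM_011319, with 72, held 32.5% in synaptosomes and 36.6% in homogenate. All 4 nuclear noncoding RNAs were lower in the synaptosome library, with log2 ratios of -3.29 to -2.08. The part of unspliced or nuclear RNA in the transcript shares was not tested.

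Among the remaining entries, the main ones of Tars2 split as 79.7% in synaptosomes and 48.0% in homogenate for NM_027931, and as 18.5% in synaptosomes and 46.5% in homogenate for NM_001163618. Posterior estimates moved the Tars2 shares to 49.8% in synaptosomes and 42.9% in homogenate for NM_027931, so this split depends on how reads were divided. The Nars entries, which differ by 3 bases, gave NM_027350 a share of 36.1% in synaptosomes and 42.2% in homogenate. Wars NM_001164314 held 17.99% in synaptosomes and 14.79% in homogenate. In Mars and Yars2 the interval of the difference held 0.

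**Figure D4:**
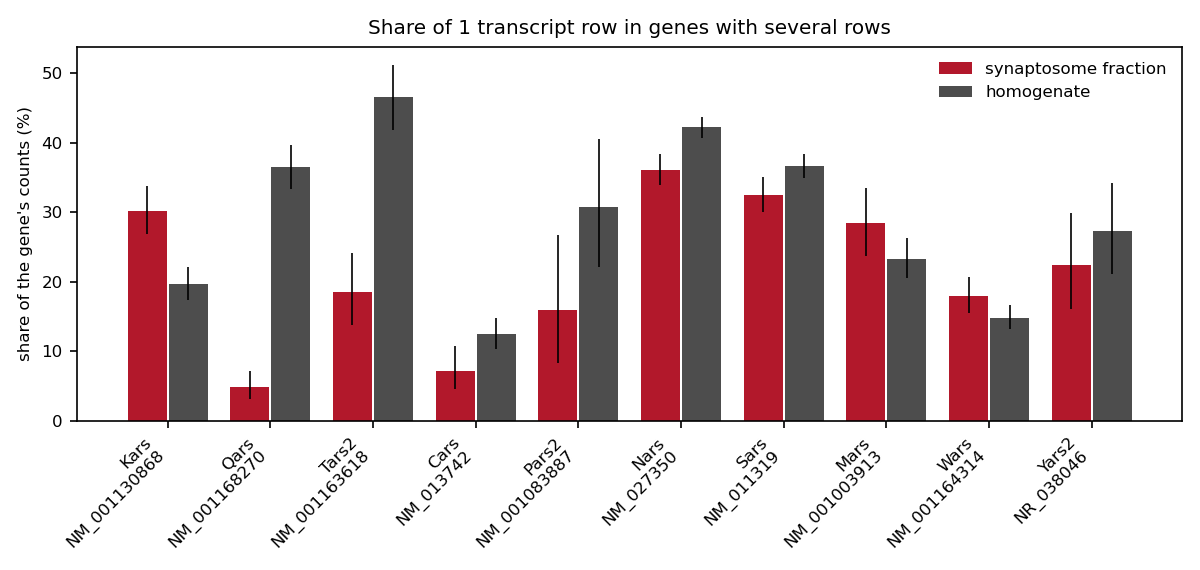
Share of each gene's counts (percent) held by the named transcript in the synaptosome library (red) and the homogenate library (grey), with exact 95% binomial intervals. The Kars transcript with the extra exon is at 30.2% in synaptosomes and 19.6% in homogenate, and the Qars transcript with intronic bases at 4.77% in synaptosomes and 36.5% in homogenate.

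Lists of genes around the synthetases showed different patterns. The scaffold proteins of the multisynthetase complex had 0 of 3 higher and 0 of 3 lower, beside 12.8% higher and 9.10% lower among all genes. Aimp1 was at 0.27, Eef1e1 at -0.45 and Aimp2 at -0.68, so the scaffolds, like the enzymes they hold, lay on both sides of 0. Aimp1 had 542 counts (88.68 TPM) in synaptosomes and 703 counts (107.01 TPM) in homogenate. The 7 synthetase subunits and relatives outside the name rule were all below 0, as were 50.7% of all genes tested. The interval lay below 0 in 4 of the 7, beside 5085 of all 14153 genes. Their median was -0.72, and none passed the 2-fold rule, beside the same shares of all genes. They ran from Tarsl2 (-0.89), a cytosolic threonyl relative, to Aarsd1 (-0.12), which edits wrongly charged alanine transfer RNA. Aarsd1 was also the most abundant of the relatives by mean TPM.

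Of the genes that make mitochondrial glutaminyl-tRNA and formylmethionyl-tRNA, 4 were in the tables, with a median of -0.30. Of these 0 passed the rule, beside 12.8% higher and 9.10% lower among all genes. They ran from Mtfmt (-0.63), the formyltransferase, to Pet112l (0.40), a subunit of the amidotransferase. Gatc, another subunit and the most abundant of the 4, was at -0.04. Among the genes of tRNA processing and export 1 of 7 was higher and 0 were lower, beside 12.8% higher and 9.10% lower among all genes. Hsd17b10, a subunit of mitochondrial RNase P that is also a steroid dehydrogenase, had 576 counts (118.65 TPM) in synaptosomes and 423 counts (81.06 TPM) in homogenate, a log2 ratio of 1.09. Pop1, a nuclear RNase P subunit, was at -0.93, and the tRNA exporter Xpot at 0.16.

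Cytosolic elongation factors, which bring charged transfer RNAs to the ribosome and move it along, had ratios mostly above 0. Their median log2 ratio was 0.94 under TMM, 0.45 by library totals and 0.47 in TPM. Under TMM 2 of 6 were higher and 0 lower, beside 12.8% higher and 9.10% lower among all genes. Eef1a1 had 54036 counts (5358.40 TPM) in synaptosomes and 34820 counts (3212.27 TPM) in homogenate, a log2 ratio of 1.28, and Eef2 was at 1.18. Eef1a2, the form of neurons and muscle, was at -0.10, the lowest of the 6. The 4 mitochondrial elongation factors had a median of -0.16, with none past the rule, beside the same shares of all genes. They ran from Tsfm (-0.57) to Gfm1 (0.34), and Tufm, the most abundant, was at 0.15.

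Of 16 tested genes on a list of Atf4 and its known targets outside the family, 4 were higher and 2 lower. Among all genes 12.8% were higher and 9.10% lower. The median log2 ratio of the list was 0.50 under TMM, 0.01 by library totals and -0.04 in TPM. Phgdh and Psat1, enzymes of serine synthesis, were higher at 1.99 and 1.51 (Psat1 was the most abundant of the list by mean TPM), as were Atf5 at 1.36 and Nupr1 at 1.16. Asns, asparagine synthetase, was lower, with 553 counts (50.70 TPM) in synaptosomes and 1918 counts (163.59 TPM) in homogenate and a log2 ratio of -1.15 (interval -1.29 to -1.01). Chac1, which breaks down glutathione, was lower at -1.47 with 21 counts in synaptosomes and 91 counts in homogenate. Atf4 itself was at -0.41. The list thus lay on both sides of 0.

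**Figure D5:**
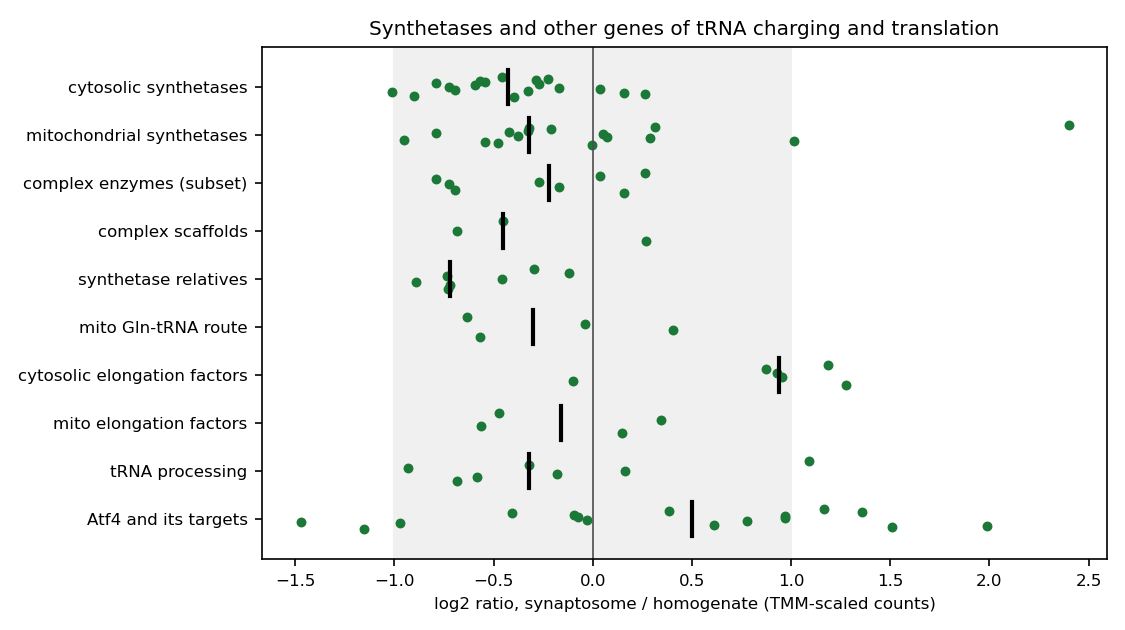
Log2 ratio of synaptosome over homogenate for synthetases and for genes around them (points, 1 gene each), with the median over all tested genes of each list as a black bar and less than 2-fold shaded. Under TMM scaling the cytosolic synthetases centre on -0.43 and the cytosolic elongation factors on 0.94.

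Some members share sequence with neighbours, which limits their values. Aars shares 532 exonic bases on the same strand with Exosc6 (91 counts in synaptosomes and 143 counts in homogenate), so its reads cannot be divided with certainty. On the opposite strand, Iars2 shares 85 exonic bases with Rab3gap2, Mars 68 with Ddit3 and Yars 30 with C77080. The kit was a stranded one per the labels, but no source used here says whether strand was used in counting. A search of all 35 members against other mouse transcripts, at 95% identity or more over at least 100 bases, matched another gene for 9 members. The longest of these matches, at 100% identity, were those of Iars2 with Rab3gap2 (2034 bases, opposite strand) and of Aars with Exosc6 (1326 bases, same strand), both longer in these GENCODE M21 transcripts than the shared exonic bases given above. Rab3gap2 had a log2 ratio of -0.29. Fars2 matched Lyrm4 over 115 bases on the opposite strand, and Hars and Hars2 matched each other over 195 bases on opposite strands. The part that such shared stretches have in the ratios, those of Iars2, Hars, Hars2 and their pairs included, was not tested. Fars2 starts 54 bases from Lyrm4, which runs the other way and was at -0.17, and Rars2 starts 16 bases from Orc3, which was at -1.05.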

How the data were processed

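Brain RNA of 2 libraries, 1 synaptosome and 1 homogenate, was measured on 30383 transcripts. RSEM 1.2.5, TopHat 1.3.3, edgeR 3.0.6 and FastQC are named with build mm10, per the submitters' processing notes, without their settings. The authors deposited expected counts, which can be fractional (67.9% of transcript values were whole in synaptosomes and 61.4% in homogenate), and TPM, which is scaled to a common sum. FPKM, as deposited by the authors, was not used. The signal per gene that the authors deposited was the summed count times 1.25 in synaptosomes and 0.798 in homogenate, within 0.5% for 97.6% and 97.7% of genes with at least 20 counts; it served as an alternative. There were 0 transcripts on the mitochondrial chromosome.

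Expected counts were summed per symbol and rounded. TMM factors (edgeR 4.0.16, R 4.3.3) were 0.843 for synaptosomes and 1.19 for homogenate. Genes that averaged 1 CPM or more were kept. Log2 ratios have exact 95% Clopper-Pearson intervals, and differences between genes or transcripts exact conditional ones; both cover counting error of rounded estimates only, and PCR copies are not independent molecules. Other scalings, filters, thresholds and measures were tried, with DESeq2 1.42.0 for size factors. Calculations used Python 3.11.15, numpy 2.4.6, scipy 1.17.1, pandas 2.3.3 and blastn 2.17.0, and the ratio script was tested on simulated data. Members, lists and comparisons were chosen with earlier results of these data known. Members are named with their ratios, except for an item that is not reported here; counts, TPM and interval are given for those past the rule, the 3 most abundant and the highest and lowest of each class, pairs on opposite sides of 0, and Lars2. Of related lists, the highest, lowest and most abundant members are named, and any further gene was picked with its value known. Positions of genes and exons are those of mm10, the same build as GRCm38.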

Additional observations from a re-analysis of the deposited data

How the results depend on the processing

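The cytosolic median stayed below 0, and below the mitochondrial median, under every alternative tried. Scaling by library totals moved the median of all genes to -0.51, the cytosolic median to -0.92 and the mitochondrial one to -0.82. It left 1 synthetase higher (Lars2) and 11 lower, beside 636 higher and 3629 lower among all genes, or 4.49% higher and 25.6% lower against 12.8% and 9.10% under TMM. TPM moved the median of all genes to -0.55 and the class medians to -0.97 and -0.88. It left 1 synthetase higher and 12 lower, beside 565 higher and 3913 lower among all genes, or 3.99% higher and 27.7% lower. DESeq2 size factors left 0 synthetases lower, since Gars came to -0.99, beside 13.4% higher and 8.65% lower among all genes. Upper-quartile scaling left 1 higher and 2 lower (Gars and Hars2), beside 11.1% higher and 10.8% lower among all genes. A threshold of 1.5-fold gave 2 higher and 8 lower synthetases of 35. Beside these stood 3391 higher and 2953 lower genes in all, or 24.0% higher and 20.9% lower. A minimum of 10 CPM left 578 lower genes in all, from fewer genes tested. With only the most abundant transcript of each gene, Qars came to 0.31, Tars2 to 0.40 and Kars to -0.17. Posterior estimates, chosen after seeing the data, gave class medians of -0.43 and -0.33. No paired analysis was possible because the 2 groups share only 1 replicate number and no result comes from a test; for the same reason no library could be left out.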
